A study of Mus musculus with 8 samples.

Results

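The genes described here are those of the amino acid transporter families Slc1, Slc3, Slc6, Slc7, Slc36, Slc38 and Slc43, in 8 RNA-seq libraries of mouse pluripotent stem cells. Members were chosen by symbol alone: a family name followed by a member number, with FPKM summed per symbol in each library. This gave 61 genes of 21994 named units in the tables, and 30 of the 61 reached 1 FPKM in at least 2 of the 8 libraries, as did 11894 units in all. CDGC1 and CDGC6 are independent stem cell lines that were derived from nascent teratoma cells in the testis of newborn mice without working Dnd1. Both are of the strain 129Sv/Dnd1ter/ter/Oct4deltaPE-GFP, homozygous for the ter allele and carrying a GFP reporter of Oct4, at passages 15 to 18. The Dnd1-KD cells are embryonic stem (ES) cells with a knockdown of Dnd1, and the control cells are E14tg2a ES cells. Both are of the 129/Ola strain, carry the genotype label wild type and were at passages 10 to 12. Each of the 4 groups has 2 libraries, and all cells grew in DMEM with serum and the cytokine LIF.

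Cells import amino acids through families that differ in what drives transport and in what is carried. Some members swap 1 amino acid for another, some are driven by sodium or protons, and the light chains of the Slc7 family reach the cell surface only when bound to a heavy chain of the Slc3 family. Several of these genes are known targets of ATF4, the transcription factor of the amino acid response, and others sit on the lysosome, where amino acids are sensed by the kinase complex mTORC1. Mouse ES cells are known for a high demand for threonine.

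ATF4 is known to bind, with C/EBP partners, sites with the core TGATGNAA, so promoters of members were searched for that motif on both strands. The windows ran from 250 bases before to 50 bases after each RefSeq start (GRCm38.p6), and 43 of the 61 members had an entry. The motif was in 3 of these 43 genes (6.98%) and in 1219 of all 27025 genes with an entry (4.51%). Among members past the filter it was in 3 of 20 (15.0%). The share over all genes past the filter was not computed, so the 15.0% has no like background. The 3 genes were Slc7a11, Slc1a4 and Slc7a7. They are printed with Slc3a2, the most abundant heavy chain, whose single window held no match. Each stretch runs from 150 bases before to 10 bases after a start on the minus strand, 5′ to 3′ in the direction of transcription, with matches in capitals. The stretches lie at chr3:50443604-50443763 for Slc7a11, at chr11:20332704-20332863 for Slc1a4, at chr14:54417935-54418094 for Slc7a7 and at chr19:8713888-8714047 for Slc3a2.
Slc7a11: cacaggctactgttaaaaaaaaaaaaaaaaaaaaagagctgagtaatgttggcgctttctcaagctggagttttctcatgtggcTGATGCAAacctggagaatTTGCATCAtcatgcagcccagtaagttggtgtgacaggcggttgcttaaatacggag
Slc1a4: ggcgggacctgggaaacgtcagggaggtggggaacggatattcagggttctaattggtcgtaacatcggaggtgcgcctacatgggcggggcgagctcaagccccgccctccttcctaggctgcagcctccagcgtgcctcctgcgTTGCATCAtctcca
Slc7a7: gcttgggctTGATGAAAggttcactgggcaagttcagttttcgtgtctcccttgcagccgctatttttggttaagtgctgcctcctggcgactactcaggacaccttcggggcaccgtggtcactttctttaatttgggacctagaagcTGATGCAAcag
Slc3a2: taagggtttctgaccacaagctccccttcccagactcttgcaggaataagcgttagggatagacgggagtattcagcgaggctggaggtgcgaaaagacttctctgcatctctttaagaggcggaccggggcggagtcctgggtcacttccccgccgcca
Slc7a11 held 2 matches whose first bases lay 66 and 47 bases before the start, on opposite strands. Slc1a4 held 1 match, 4 bases before the start, and Slc7a7 held 2 matches, 141 and 1 bases before the start, in the window printed. Of its 5 listed windows 1 more held 1 match. It overlaps the printed window, and its match is the same site as the one 1 base before the printed start. A match is a description of the letters and was not tested as a binding site.

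Levels are given as FPKM, fragments scaled to transcript length and to mapped fragments, which allows levels of different genes to be set side by side. Differences between groups are on the log2(FPKM + 1) scale with their standard error (SE), which understates the change of low genes, and a gene passed at an adjusted p below 0.05 (limma, Benjamini-Hochberg adjustment over all 11894 units). The files hold no read counts, and their own intervals implied 10.7 to 18.0 M fragments per library. Dnd1 itself was listed at 0 FPKM in the 6 CDGC1, CDGC6 and control libraries and was joined with its neighbour Hars in 1 entry in the 2 Dnd1-KD libraries, so the knockdown could not be checked. Pearson's r across units was 0.978 to 0.985 between libraries of 1 group and 0.855 to 0.958 between groups. Whether the 2 libraries of a group are separate cultures is not given in the labels, so a p-value reflects the spread of these libraries alone and that spread may be technical. The derived lines differ from the control cells in strain, genotype, passage and derivation at once, and these cannot be told apart.

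The 6 markers of pluripotent cells summed to 1475 and 1505 FPKM in CDGC1, 1776 and 2041 in CDGC6, 960 and 809 in Dnd1-KD, against 1614 and 1607 in control. Pou5f1 was the largest part, at 951 and 1027 FPKM in CDGC1, against 944 and 934 in control. Of the 6 markers, 1 was higher and 3 lower in CDGC1 and 6 were lower in Dnd1-KD (limma). None passed in CDGC6, where 2 were higher at an unadjusted p below 0.05. Of all units 50.5% passed in CDGC1, 36.2% in Dnd1-KD and 18.7% in CDGC6, which is the background for each marker count here. Sox2 had 75.1 and 79.6 FPKM in CDGC1, against 158 and 167 in control, and Utf1 had 70.9 and 77.9 FPKM in CDGC1, against 195 and 210 in control. The 8 fibroblast markers summed to 33.9 and 33.1 FPKM in CDGC1, 24.2 and 31.8 in CDGC6, 9.93 and 10.4 in Dnd1-KD, against 6.51 and 7.2 in control. Of 5 tested, 4 were higher in CDGC1, 5 in CDGC6 and 1 in Dnd1-KD. Col1a1 had 20.3 and 14.4 FPKM in CDGC1 and 9.12 and 15.2 in CDGC6, against 3.04 and 3.58 in control. Dcn had 0.0884 and 0.387 FPKM in CDGC1 and 0.568 and 0.311 in CDGC6, against 0.0994 and 0.116 in control, and Lum was at 0 in CDGC6 and Dnd1-KD. The 6 extraembryonic endoderm markers summed to 11.5 and 46.5 FPKM in CDGC1, 9.46 and 5.37 in CDGC6, 10.3 and 10.8 in Dnd1-KD, against 3.66 and 3.52 in control. Foxa2 made up 8.15 and 38.6 FPKM of the CDGC1 sums. In Dnd1-KD 3 of 4 tested were higher, Dab2 (5.99 and 5.41 FPKM, against 2.04 and 2.02 in control), Gata6 and Gata4. Gata4 passed the filter through Dnd1-KD alone, and without it 2 of 3 were higher. The 4 leukocyte markers summed to 0.215 and 0.603 FPKM in CDGC1, 9.65 and 12.4 in CDGC6, 22.2 and 21.8 in Dnd1-KD, against 22.7 and 23.8 in control. Laptm5 made up nearly all of that sum outside CDGC1, and the defining marker Ptprc was at most 0.0432 FPKM. The part of these marker differences in the transporter results was not tested. In bulk RNA, fewer cells of a type and less RNA per cell cannot be told apart.

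Taken as a sum, the 61 members came to 666 and 645 FPKM in CDGC1, 672 and 711 in CDGC6, 707 and 738 in Dnd1-KD, against 617 and 609 in control. A few genes made up most of it, since the 5 most abundant members held 61.4% to 67.3% of the sum in each library. Slc3a2 and Slc38a2, the sodium-coupled carrier of small neutral amino acids, were among those 5 in all 8 libraries. Slc7a5 was among them in 7 libraries, the exception being CDGC1 replicate 1, where Slc7a6 took its place. Slc38a4, among those 5 in both Dnd1-KD and both control libraries, was below 0.1 FPKM in CDGC1.

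**Figure D1:**
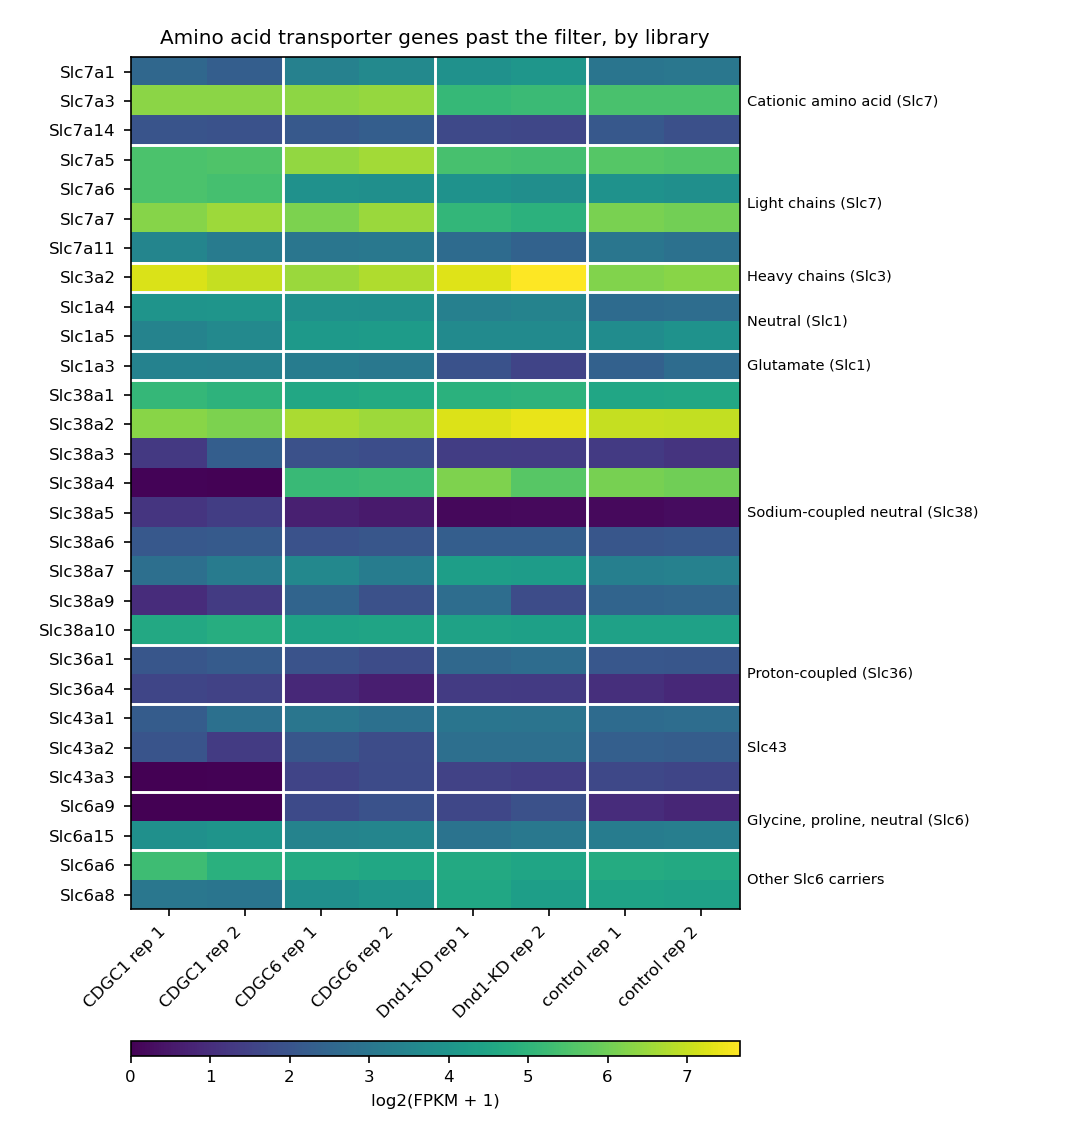
Levels of 29 of the 30 members past the filter as log2(FPKM + 1), 1 row a gene and 1 column a library, with white lines between transport groups and between cell groups. The rows of Slc38a4, Slc43a3 and Slc6a9 are dark in both CDGC1 libraries, and Slc3a2 is brightest in Dnd1-KD replicate 2, at 201 FPKM.

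The other 31 members stayed below 1 FPKM in all 8 libraries and were not tested. Slc3a1, Slc7a10 and Slc7a12 were listed at 0 in all 8 libraries, and exons of Slc3a1 and Slc7a10 overlap the expressed genes Prepl and Lrp3, so that their zeros may be failed estimates. The highest of the 31 was Slc1a6, a glutamate carrier, at 0.933 FPKM in control replicate 1. Slc1a1, a carrier of glutamate and cysteine, had 0.0100 and 0.00808 FPKM in CDGC1, 0.215 and 0.398 in CDGC6, 0.813 and 0.873 in Dnd1-KD, against 0.659 and 0.595 in control. CDGC1 was lowest and did not overlap any other group, but every value lay under the filter. All 3 monoamine carriers, Slc6a2, Slc6a3 and Slc6a4, were among the 31, with 0.38 FPKM at most.

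Dnd1-KD cells had higher Slc3a2, Slc7a1, Slc38a7, Slc6a9 and Slc1a4 than control and lower Slc7a7, Slc1a3 and Slc7a3. Of the 30 members tested, 9 rose, 3 fell and 18 did not pass. The 9 include Slc6a9, which passed the filter only through Dnd1-KD and CDGC6, where it was high. Its call does not count as support. The 12 that passed are 40.0% of the 30, against 36.2% of all units tested, with 20.7% of all units higher and 15.5% lower. The share of members is near that of all units. The median log2 difference was −0.01 over the 30 members and 0.02 over all units. Of the 12 calls, 5 held with every single library left out in turn (Slc3a2, Slc7a1, Slc7a7, Slc1a4 and Slc6a9), and the count was 6 without either control library, 7 without Dnd1-KD replicate 2 and at most 13.

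CDGC1 cells had more Slc7a6, Slc1a4, Slc7a3 and Slc3a2 than control and almost no Slc38a4 or Slc43a3. Of the 30 members tested, 10 were higher, 8 were lower and 12 did not pass. The 18 that passed are 60.0% of the members, against 50.5% of all units, of which 23.5% were higher and 27% lower. The count includes Slc38a5, which passed the filter through CDGC1 alone, and Slc6a9, listed at 0 in CDGC1. Without both, 9 of 28 were higher and 7 lower. The median log2 difference was 0.07 over the members and −0.03 over all units. Without any single library 15 of the 18 calls held, those of Slc38a5 and Slc6a9 among them, the exceptions being Slc38a10, Slc38a9 and Slc7a1.

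CDGC6 cells had more Slc1a4, Slc7a3 and Slc7a5 than control and less Slc38a4 and Slc6a8. Of the 30 members tested, 6 were higher, 3 were lower and 21 did not pass, so 30.0% passed, against 18.7% of all units (8.46% higher and 10.2% lower). The 6 include Slc6a9, past the filter only through CDGC6 and Dnd1-KD, where it was high. They also include Slc38a5, below 1 FPKM in every CDGC6 and control library. Neither call counts as support. The median was 0.09 over the members and −0.01 over all units. Only the calls of Slc1a4, Slc7a3 and Slc7a5 held without any single library. The count fell to 4 without CDGC6 replicate 1, without CDGC6 replicate 2 or without control replicate 1, and to 3 without control replicate 2.

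The derived lines also differed from each other. CDGC1 had more Slc7a6 and less Slc38a4, Slc43a3, Slc7a1, Slc7a5 and Slc6a8 than CDGC6. Of the 30 members, 8 were higher in CDGC1, 9 were lower and 13 did not pass. Without Slc38a5 and Slc6a9, 7 of 28 were higher and 8 lower. The 17 are 56.7% of the members, against 47.2% of all units (23% higher and 24.1% lower), with a median of −0.07 over the members and −0.02 over all units. Without any single library 12 of the 17 calls held. Slc38a5 and Slc6a9 are among those 12 and do not count as support. The comparisons with control share the control libraries, and CDGC1 and CDGC6 each enter more than 1 comparison.

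**Figure D2:**
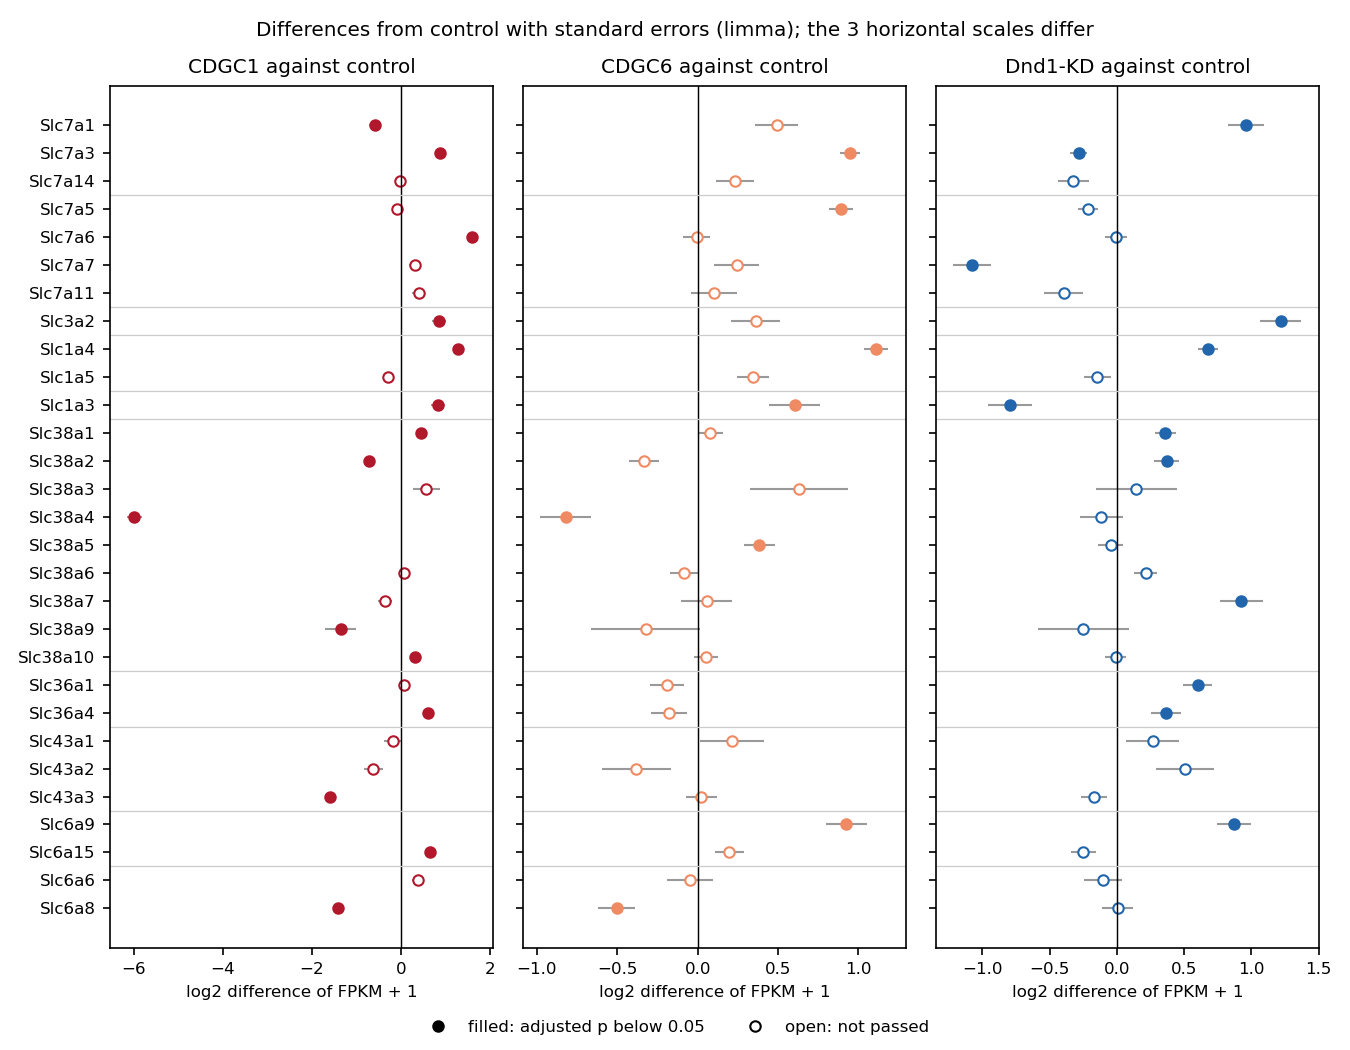
Log2 differences of FPKM + 1 from control with standard errors for 29 of the 30 members tested, in CDGC1, CDGC6 and Dnd1-KD, with filled points for an adjusted p below 0.05 and a separate horizontal scale for each panel. Slc38a5 and Slc6a9 have no point for CDGC1. Slc1a4 lies right of 0 with a filled point in all 3 panels, and Slc38a4 lies at −5.98 in CDGC1.

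Slc3a2 (chromosome 19, 8706882 to 8723369, mm10, minus strand) encodes the heavy chain CD98hc, which carries light chains to the plasma membrane. It had 149 and 126 FPKM in CDGC1, 89.2 and 105 in CDGC6, 155 and 201 in Dnd1-KD, against 73.4 and 77.1 in control. Both control libraries were the lowest of the 8 and both Dnd1-KD libraries the highest, so Dnd1-KD and CDGC1 did not overlap control. The log2 difference from control was 1.22 ± 0.15 in Dnd1-KD (SE, adjusted p = 0.00326, limma) and 0.86 ± 0.15 in CDGC1 (0.00459). In CDGC6 it was 0.36 ± 0.15 and did not pass (0.147), although both CDGC6 libraries lay above both control libraries. Between the derived lines it was 0.50 ± 0.15 higher in CDGC1 (0.0379), a call that was lost without CDGC1 replicate 1, either CDGC6 library or either control library. It was also lost with no filter, with quantile normalization or median-ratio scaling and with only the compared groups, with adjusted p between 0.0251 and 0.165 over its 18 alternatives.

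Slc7a5 (chromosome 8, 121881150 to 121907694, minus strand), the light chain that imports leucine and other large neutral amino acids, followed a different order. Its levels were 43.9 and 45.7 FPKM in CDGC1, 84.5 and 95.1 in CDGC6, 41.9 and 40.3 in Dnd1-KD, against 48.7 and 47.1 in control. CDGC6 stood above every other library, and the other 3 groups lay within 40.3 to 48.7 FPKM. Its log2 difference was 0.89 ± 0.08 in CDGC6 against control (adjusted p = 0.00185, limma) and −0.99 ± 0.08 in CDGC1 against CDGC6 (0.000213). In Dnd1-KD it was −0.22 ± 0.08 and did not pass (0.0704). It passed without CDGC6 replicate 1 or replicate 2 (0.0440 each), with median-ratio scaling (0.0441) and with only the compared groups (0.0326), with adjusted p of 0.0326 to 0.281 over its 18 alternatives.

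Slc7a6 (chromosome 8, 106168857 to 106198706, plus strand) is a light chain that exchanges cationic for neutral amino acids. It had 44.0 and 41.2 FPKM in CDGC1, 13.6 and 13.2 in CDGC6, 14.0 and 12.8 in Dnd1-KD, against 14.0 and 12.9 in control. The other 3 groups overlapped each other within 12.8 to 14.0 FPKM, and CDGC1 lay apart at 42.6 ± 1.98 FPKM (SD, n = 2). CDGC1 was 1.59 ± 0.08 above control (adjusted p = 3.58e-05, limma) and 1.60 ± 0.08 above CDGC6 (4.75e-05) on the log2 scale.

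Slc7a7 (chromosome 14, 54369442 to 54417780, minus strand) carries out a related exchange and is best known for its loss in lysinuric protein intolerance in human. It had 76.5 and 91.2 FPKM in CDGC1, 70.6 and 89.1 in CDGC6, 32.9 and 29.5 in Dnd1-KD, against 69.0 and 64.8 in control. Both Dnd1-KD libraries were far below the other 6, which lay between 64.8 and 91.2 FPKM. In log2 terms the difference was −1.08 ± 0.14 in Dnd1-KD (adjusted p = 0.00350, limma), while 0.32 ± 0.14 in CDGC1 and 0.24 ± 0.14 in CDGC6 did not pass (0.105 and 0.260). An exon of Slc7a7 overlaps Oxa1l, which had 25.4 and 20.2 FPKM in Dnd1-KD and 23.6 and 25.6 in control, and these ranges overlap.

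Slc7a11 (chromosome 3, 49892526 to 50443614, minus strand) is the cystine and glutamate exchanger. It had 10.2 and 8.13 FPKM in CDGC1, 7.09 and 7.39 in CDGC6, 5.42 and 4.30 in Dnd1-KD, against 7.10 and 6.27 in control. No comparison passed for it. The fitted log2 difference was −0.40 ± 0.15 in Dnd1-KD (adjusted p = 0.0785, limma) and 0.40 ± 0.15 in CDGC1 (0.0609). The Dnd1-KD difference passed with quantile normalization (0.0470), and the CDGC1 difference passed without CDGC1 replicate 2 (0.0315, with 0.0315 to 0.251 over its 18 alternatives). The other light chains were low, with Slc7a8 at 0.91 FPKM at most and 6 of the 10 below the filter.

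Set beside each other within a library, heavy and light chains were in different proportion. Slc3a2 divided by the sum of the 6 light chains known to bind it was 0.854 and 0.677 in CDGC1, 0.505 and 0.513 in CDGC6, 1.63 and 2.30 in Dnd1-KD, against 0.526 and 0.585 in control. Only in Dnd1-KD did the heavy chain exceed the light chains, which summed to 94.8 and 87.5 FPKM there, against 140 and 132 FPKM in control. In CDGC6 the light chains summed to 177 and 206 FPKM and the ratio stayed below both control libraries. These ratios are a description of RNA levels and carry no test.

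**Figure D3:**
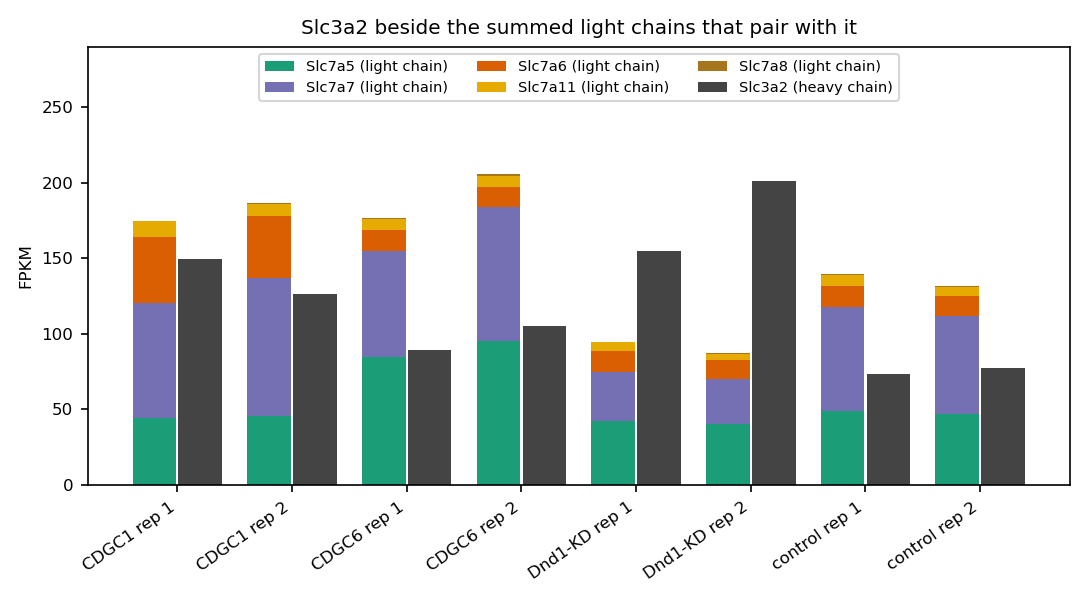
FPKM of Slc3a2 (dark bars) and of the light chains that pair with it (stacked bars) in each of the 8 libraries. The dark bar is taller than the stack only in the 2 Dnd1-KD libraries, where the ratios are 1.63 and 2.30. Slc7a10, listed at 0 throughout, is not drawn.

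Among the carriers of arginine and lysine, Slc7a1 and Slc7a3 moved in opposite directions in 2 of the groups. Slc7a1 (chromosome 5, 148327410 to 148399904, minus strand), the widely expressed cationic carrier, had 4.89 and 3.87 FPKM in CDGC1, 9.31 and 11.2 in CDGC6, 13.7 and 15.4 in Dnd1-KD, against 6.82 and 7.12 in control. The 4 groups did not overlap and ran CDGC1, control, CDGC6 and Dnd1-KD from low to high. The log2 difference from control was 0.96 ± 0.14 in Dnd1-KD (adjusted p = 0.00441, limma) and −0.57 ± 0.14 in CDGC1 (0.0135), and CDGC1 against CDGC6 gave −1.07 ± 0.14 (0.00136). The CDGC6 difference from control, 0.49 ± 0.14, did not pass (0.0525) and did so without CDGC1 replicate 1 or 2 (0.0369 and 0.0366) or with a pseudocount of 5 (0.0489, with 0.0366 to 0.222 over its 18 alternatives). The CDGC1 call was lost without control replicate 1 or 2 (0.0576 and 0.0736, with 0.0120 to 0.0736 over its 18 alternatives).

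Slc7a3 (chromosome X, 101079210 to 101086020, minus strand), a cationic carrier of the same kind, was much more abundant. It had 79.3 and 79.9 FPKM in CDGC1, 81.8 and 86.4 in CDGC6, 34.2 and 36.2 in Dnd1-KD, against 42.8 and 43.4 in control. Both derived lines lay far above the E14tg2a-labelled control and did not overlap it, and Dnd1-KD lay below it. The log2 difference was 0.87 ± 0.06 in CDGC1 (adjusted p = 0.000114, limma), 0.95 ± 0.06 in CDGC6 (0.000825) and −0.28 ± 0.06 in Dnd1-KD (0.0162). The Dnd1-KD call was lost without control replicate 1 (0.0963), control replicate 2 (0.104) or Dnd1-KD replicate 1 (0.0591), with 0.0139 to 0.104 over its 18 alternatives. Slc7a14, of the same branch, had 2.09 to 3.88 FPKM over the 8 libraries and passed in no comparison. Slc7a2 and Slc7a4 were under the filter.

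Slc1a4 (chromosome 11, 20302180 to 20332713, minus strand), an exchanger of alanine, serine, cysteine and threonine, was the only member that was higher than control in all 3 comparisons and kept each call without any single library. It had 14.7 and 14.9 FPKM in CDGC1, 13.3 and 12.9 in CDGC6, 9.09 and 9.81 in Dnd1-KD, against 5.45 and 5.62 in control. The control libraries were the lowest and the 4 groups did not overlap. Its log2 difference was 1.27 ± 0.08 in CDGC1 (adjusted p = 6.36e-05, limma), 1.11 ± 0.08 in CDGC6 (0.000964) and 0.68 ± 0.08 in Dnd1-KD (0.00252). These differences share the control libraries.

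Slc1a5, the related glutamine exchanger, had 9.82 and 11.2 FPKM in CDGC1, 16.2 and 17.3 in CDGC6, 11.6 and 11.6 in Dnd1-KD, against 12.2 and 13.8 in control. CDGC6 was highest and CDGC1 lowest, and the log2 difference between the lines was −0.62 ± 0.10 (CDGC1 against CDGC6, adjusted p = 0.00338, limma). Against control none passed, with −0.28 ± 0.10 in CDGC1 (0.0574), 0.34 ± 0.10 in CDGC6 (0.0608) and −0.15 ± 0.10 in Dnd1-KD (0.297). The CDGC1 difference passed without CDGC1 replicate 2 (0.0360) or with quantile normalization (0.0471, with 0.0360 to 0.300 over its 18 alternatives), and that of CDGC6 without CDGC1 replicate 1 or 2 (0.0446 and 0.0447) or with quantile normalization (0.0390, with 0.0390 to 0.305).

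Slc1a3 (chromosome 15, 8634124 to 8710764, minus strand), the glial glutamate carrier GLAST, was the only glutamate carrier past the filter. It had 9.47 and 9.27 FPKM in CDGC1, 8.26 and 7.43 in CDGC6, 2.80 and 1.96 in Dnd1-KD, against 4.21 and 5.49 in control. The derived lines were above control and Dnd1-KD below it without overlap, but the authors' interval around both CDGC1 values reaches 0. In log2 terms the difference was 0.83 ± 0.16 in CDGC1 (adjusted p = 0.00626, limma), 0.60 ± 0.16 in CDGC6 (0.0491) and −0.79 ± 0.16 in Dnd1-KD (0.0133). The Dnd1-KD call was lost without control replicate 2 (0.0773) or Dnd1-KD replicate 2 (0.0669), with 0.00697 to 0.0773 over its 18 alternatives. The CDGC6 call was lost without either CDGC1, either CDGC6 or either control library, with a pseudocount of 0.1 (0.0643), no filter (0.0706), FPKM summed per symbol (0.0573) or only the compared groups (0.0614), up to 0.235 without control replicate 1 and down to 0.0337 over its alternatives.

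**Figure D4:**
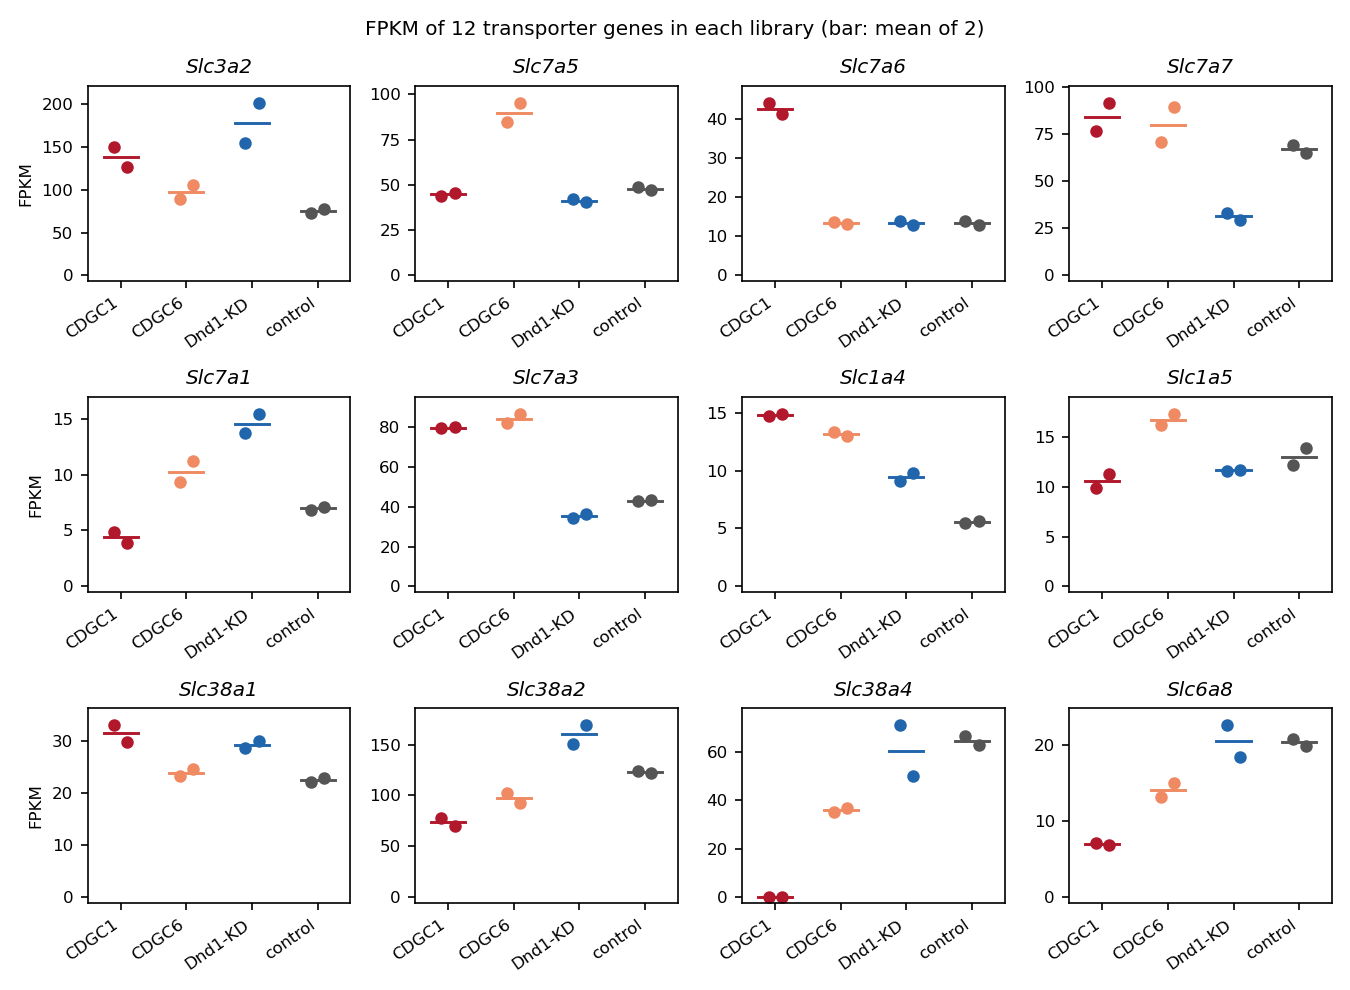
FPKM of 12 members in each library, with a point for each library and a bar for the mean of the 2 libraries of a group. Slc38a4 lies at 0.0565 and 0.0228 FPKM in CDGC1, Slc7a6 is high in CDGC1 alone at 44.0 and 41.2 FPKM, and Slc7a7 is low in Dnd1-KD at 32.9 and 29.5 FPKM.

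The Slc38 family, sodium-coupled carriers of glutamine, alanine and other neutral amino acids, summed to 148 and 145 FPKM in CDGC1, 203 and 193 in CDGC6, 301 and 294 in Dnd1-KD, against 251 and 247 in control. That was 22.2% and 22.5% of all member FPKM in CDGC1, against 40.7% and 40.5% in control. Of its 11 members 9 were tested, and 3 were higher and 3 lower in CDGC1, 1 was higher and 1 lower in CDGC6, and 3 were higher and 0 lower in Dnd1-KD (limma), where 0 were also lower at an unadjusted p below 0.05. These are 66.7% of the 9 in CDGC1, against 50.5% of all units, 22.2% in CDGC6, against 18.7%, and 33.3% in Dnd1-KD, against 36.2%, and the CDGC1 count includes Slc38a5.

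Slc38a1, Slc38a2 and Slc38a4 lie next to each other on the minus strand of chromosome 15, and they did not move together. Slc38a4 (96994820 to 97055956), an imprinted gene known to be expressed from the paternal copy in mouse, had 0.0565 and 0.0228 FPKM in CDGC1, 35.4 and 37.0 in CDGC6, 71.1 and 50.0 in Dnd1-KD, against 66.5 and 62.8 in control. CDGC1 was near 0, CDGC6 lay between CDGC1 and control without overlap, and the Dnd1-KD libraries lay on either side of control. The fitted log2 difference was −5.98 ± 0.16 in CDGC1 (adjusted p = 4.39e-06, limma), −0.82 ± 0.16 in CDGC6 (0.0204) and −5.16 ± 0.16 in CDGC1 against CDGC6 (9.73e-06). The CDGC6 call was lost without CDGC6 replicate 1 (0.0751), CDGC6 replicate 2 (0.0698), control replicate 1 (0.119) or control replicate 2 (0.0986), with 0.00671 to 0.119 over its 18 alternatives. In Dnd1-KD the difference was −0.12 ± 0.16 and did not pass (0.608). It turned to 0.13 without Dnd1-KD replicate 2 (0.346) and passed at −0.37 without Dnd1-KD replicate 1 (0.0418), with 0.0418 to 0.881 over its 18 alternatives.

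Slc38a2 (96687392 to 96699730), which is known to be induced when amino acids are scarce, had 78.3 and 70.2 FPKM in CDGC1, 103 and 92.6 in CDGC6, 151 and 169 in Dnd1-KD, against 124 and 122 in control. The 4 groups did not overlap, with CDGC1 lowest and Dnd1-KD highest. The log2 difference was −0.72 ± 0.09 in CDGC1 (adjusted p = 0.00115, limma) and 0.37 ± 0.09 in Dnd1-KD (0.0244). In CDGC6 it was −0.33 ± 0.09 and did not pass (0.0522), but passed without CDGC1 replicate 1 or 2 (0.0452 each) or with only the compared groups (0.0471, with 0.0452 to 0.217 over its 18 alternatives). The Dnd1-KD call was lost without control replicate 1 (0.106), control replicate 2 (0.115) or Dnd1-KD replicate 2 (0.119) and with median-ratio scaling (0.0592), with 0.0137 to 0.119 over its 18 alternatives. CDGC1 against CDGC6 gave −0.39 ± 0.09 (0.0146), which was lost without CDGC1 replicate 2 (0.0564) or CDGC6 replicate 1 (0.0679), with 0.0149 to 0.0679.

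Slc38a1 (96571418 to 96642913), a glutamine carrier, had 33.0 and 29.9 FPKM in CDGC1, 23.3 and 24.6 in CDGC6, 28.6 and 30.0 in Dnd1-KD, against 22.2 and 23.0 in control. CDGC1 and Dnd1-KD overlapped each other and lay above control, and CDGC6 lay just above control. Its log2 difference was 0.46 ± 0.08 in CDGC1 (adjusted p = 0.00353, limma), 0.08 ± 0.08 in CDGC6 (0.493) and 0.36 ± 0.08 in Dnd1-KD (0.0153), and CDGC1 was 0.38 ± 0.08 above CDGC6 (0.00833). The Dnd1-KD call was lost without control replicate 1 (0.105), control replicate 2 (0.0752) or Dnd1-KD replicate 2 (0.0784), with 0.0112 to 0.105 over its 18 alternatives.

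Slc38a5, a carrier of glutamine and glycine, was low everywhere, with 1.29 and 1.60 FPKM in CDGC1, 0.580 and 0.472 in CDGC6, 0.123 and 0.140 in Dnd1-KD, against 0.152 and 0.185 in control. The derived lines did not overlap control. It passed the filter through the 2 CDGC1 libraries alone, so its CDGC1 values are a description with no test. In log2 terms the difference of CDGC6 was 0.38 ± 0.09 (adjusted p = 0.0399, limma). All CDGC6 and control values behind it lay under the filter, so this call does not count as support. The CDGC6 call was lost without either CDGC6, either control or either Dnd1-KD library, with a pseudocount of 5 (0.0876) or quantile normalization (0.0825), up to 0.197 without control replicate 1 and down to 0.0182 over its 17 alternatives. Slc38a10 had 23.7 and 26.2 FPKM in CDGC1, 20.2 and 21.2 in CDGC6, 20.3 and 19.3 in Dnd1-KD, against 20.0 and 19.8 in control. CDGC1 was the highest group for it, by 0.31 ± 0.08 over control (adjusted p = 0.0167), a call lost without control replicate 1 (0.0850) or 2 (0.0965), with 0.00873 to 0.0965 over its 18 alternatives.

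The family also has members on the lysosome. Slc38a7, which exports glutamine from lysosomes in human cells, had 5.98 and 8.01 FPKM in CDGC1, 10.8 and 8.34 in CDGC6, 18.5 and 17.9 in Dnd1-KD, against 8.91 and 9.32 in control. Dnd1-KD lay far above the other 6 libraries, with a log2 difference of 0.92 ± 0.16 (adjusted p = 0.00831, limma) that was lost without control replicate 1 (0.0573, with 0.00548 to 0.0573 over its 18 alternatives). Slc38a9, known from human cells as a lysosomal arginine sensor of mTORC1, had 0.956 and 1.54 FPKM in CDGC1, 4.51 and 2.76 in CDGC6, 5.68 and 2.44 in Dnd1-KD, against 4.58 and 4.81 in control. CDGC1 was lowest and did not overlap the others, and the log2 difference was −1.35 ± 0.34 against control (adjusted p = 0.0174). It was lost without CDGC1 replicate 1 (0.0837), control replicate 1 (0.0644) or control replicate 2 (0.0722), with 0.00727 to 0.0837 over its 17 alternatives, and the authors' interval around control replicate 2 reaches 0. In Dnd1-KD it was −0.25 ± 0.34 (0.610) and turned to 0.23 without Dnd1-KD replicate 2 (0.608, with 0.113 to 0.772 over its 17 alternatives). Slc38a3 and Slc38a6 lay between 1.22 and 3.93 FPKM and passed in no comparison.

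Slc36a1, a proton-coupled exporter of small neutral amino acids from lysosomes, had 3.17 and 3.58 FPKM in CDGC1, 2.85 and 2.43 in CDGC6, 5.0 and 5.59 in Dnd1-KD, against 3.20 and 3.10 in control. Dnd1-KD was above all other libraries, by 0.60 ± 0.11 over control on the log2 scale (adjusted p = 0.00893, limma). The call was lost without control replicate 1 (0.0613), control replicate 2 (0.0633) or Dnd1-KD replicate 2 (0.0549), with 0.00649 to 0.0633 over its 17 alternatives. Slc36a4, whose human counterpart carries proline and tryptophan, had 2.0 and 1.86 FPKM in CDGC1, 0.846 and 0.570 in CDGC6, 1.5 and 1.47 in Dnd1-KD, against 1.03 and 0.832 in control. CDGC1 was highest, with 0.60 ± 0.11 over control (adjusted p = 0.00513) and 0.78 ± 0.11 over CDGC6 (0.00213). The Dnd1-KD difference was 0.37 ± 0.11 (0.0445) and was lost without any 1 of the control or Dnd1-KD libraries, with a pseudocount of 0.1 (0.0659), quantile normalization (0.0821) or median-ratio scaling (0.0576), up to 0.225 without control replicate 2 and down to 0.0254 over its 17 alternatives.

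In the Slc43 family, Slc43a3, whose human counterpart carries purine nucleobases, was close to 0 in CDGC1. It had 0.0147 and 0.0354 FPKM in CDGC1, 1.95 and 2.36 in CDGC6, 1.83 and 1.68 in Dnd1-KD, against 2.18 and 2.02 in control. CDGC1 lay far below the other 6 libraries, by −1.60 ± 0.10 from control (adjusted p = 6.84e-05, limma) and −1.62 ± 0.10 from CDGC6 (8.66e-05) on the log2 scale. Slc43a2, a carrier of large neutral amino acids, had 2.99 and 1.54 FPKM in CDGC1, 3.10 and 2.43 in CDGC6, 5.94 and 5.98 in Dnd1-KD, against 3.97 and 3.82 in control. Dnd1-KD was highest but its log2 difference of 0.51 ± 0.21 did not pass (adjusted p = 0.112), and it passed without CDGC1 replicate 1 or 2 (0.0196 and 0.0195) or with only the compared groups (0.00951, with 0.00951 to 0.288 over its 18 alternatives). In CDGC1 it was −0.62 ± 0.21 (0.0523) and passed without CDGC1 replicate 1 (0.00430) or with a pseudocount of 5 (0.0439, with 0.00430 to 0.167 over its 18 alternatives). Slc43a1 had 3.67 to 7.02 FPKM over the 8 libraries and passed in no comparison.

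Slc6a8 (chromosome X, 73673150 to 73682502, plus strand), the creatine carrier, had 7.13 and 6.90 FPKM in CDGC1, 13.1 and 15.0 in CDGC6, 22.6 and 18.4 in Dnd1-KD, against 20.7 and 19.9 in control. CDGC1 was lowest and CDGC6 lay between it and control, with no overlap, while Dnd1-KD overlapped control. The fitted log2 difference was −1.41 ± 0.12 in CDGC1 (adjusted p = 0.000207, limma), −0.50 ± 0.12 in CDGC6 (0.0339) and 0.01 ± 0.12 in Dnd1-KD (0.980), and −0.91 ± 0.12 in CDGC1 against CDGC6 (0.00144). The CDGC6 call was lost without CDGC6 replicate 1 (0.111), CDGC6 replicate 2 (0.0576), control replicate 1 (0.172) or control replicate 2 (0.148), with 0.0299 to 0.172 over its 18 alternatives.

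Slc6a6, the taurine carrier, had 37.6 and 28.0 FPKM in CDGC1, 24.9 and 22.8 in CDGC6, 24.1 and 21.8 in Dnd1-KD, against 25.0 and 24.3 in control. CDGC1 was higher than the rest, although the authors' interval around its second value reaches 0. The log2 difference of CDGC1 from control was 0.38 ± 0.14 and did not pass (adjusted p = 0.0638, limma). CDGC1 against CDGC6 gave 0.43 ± 0.14 (0.0467), which was lost under 12 of its 18 alternatives, among them the removal of CDGC1 replicate 1 and of any CDGC6, control or Dnd1-KD library, with 0.00568 to 0.175. Slc6a15, a carrier of branched-chain amino acids and proline, had 13.4 and 14.6 FPKM in CDGC1, 9.68 and 10.2 in CDGC6, 6.63 and 7.45 in Dnd1-KD, against 8.32 and 8.75 in control. The 4 groups did not overlap, and CDGC1 was 0.65 ± 0.09 above control (adjusted p = 0.00178) and 0.45 ± 0.09 above CDGC6 (0.00839) on the log2 scale.

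Slc6a9 (chromosome 4, 117834506 to 117875198, plus strand), the glycine carrier, was listed at 0 in both CDGC1 libraries. It had 2.29 and 2.81 FPKM in CDGC6 and 2.11 and 2.74 in Dnd1-KD, against 0.956 and 0.780 in control. CDGC6 and Dnd1-KD overlapped each other and lay above control, and the gene passed the filter through these 4 libraries alone. The calls of Slc6a9 against control therefore do not count as support. Its log2 difference was 0.92 ± 0.13 in CDGC6 (adjusted p = 0.00797, limma), lost without control replicate 2 (0.0630, with 0.00729 to 0.0630 over its 17 alternatives), and 0.87 ± 0.13 in Dnd1-KD (0.00511). Exons of Slc6a9 overlap those of B4galt2 and Ccdc24, which the files join in 1 entry of 11.9 and 15.1 FPKM in CDGC1, 9.77 and 7.52 in CDGC6, 3.72 and 3.48 in Dnd1-KD, against 5.61 and 7.12 in control. That entry was highest where Slc6a9 was listed at 0, so the zeros may be failed estimates, and no fold is given for CDGC1. The joint entry was lowest in Dnd1-KD and above control in CDGC6, while Slc6a9 was above control in both. Whether the shared exons affect these values was not tested.

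Genes around the transporters were described by fixed lists. Of 23 further amino acid carriers, 14 units were tested. In Dnd1-KD 4 were higher and 4 lower, in CDGC1 3 were higher and 2 lower, and in CDGC6 2 were higher and 1 lower (limma). These are 57.1%, 35.7% and 21.4% of the 14, against 36.2%, 50.5% and 18.7% of all units. The lower ones in Dnd1-KD include Slc25a22, listed at 0 in both Dnd1-KD libraries, against 7.70 and 7.70 FPKM in control, where the zeros may be failed estimates. Slc17a7, counted as higher in CDGC6, passed the filter through CDGC6 alone. Leaving out such genes and joint entries, a choice made after seeing the data, gave 4 higher and 3 lower of 12 in Dnd1-KD and 1 higher and 1 lower of 12 in CDGC6. Ctns, the lysosomal exporter of cystine, had 11.0 and 11.3 FPKM in Dnd1-KD, against 4.92 and 4.98 in control. Pqlc2, the lysosomal exporter of cationic amino acids, had 10.1 and 12.1 FPKM in Dnd1-KD, against 4.85 and 5.08 in control. Neither overlapped control, and they rose by 1.03 ± 0.11 and 1.01 ± 0.11 on the log2 scale (adjusted p = 0.00211 and 0.00225, limma). The mitochondrial aspartate and glutamate carrier Slc25a12 had 3.60 and 2.83 FPKM in CDGC1 and 13.3 and 15.2 in CDGC6, against 16.5 and 16.0 in control, a log2 difference of −2.04 ± 0.12 in CDGC1 (adjusted p = 5.2e-05). The Dnd1-KD count of 8 fell to 4 without control replicate 1 and to 5 without control replicate 2, and the CDGC6 count of 3 fell to 0 without either control library and to 1 without CDGC6 replicate 2.

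Of 32 tested units of amino acid sensing by mTORC1, 7 were higher and 6 lower in Dnd1-KD, 4 higher and 10 lower in CDGC1, and 1 higher and 0 lower in CDGC6 (limma), where 4 were higher and 5 lower at an unadjusted p below 0.05. The shares called were 40.6% in Dnd1-KD, against 36.2% of all units, 43.8% in CDGC1, against 50.5%, and 3.12% in CDGC6, against 18.7%. The list was near all units in Dnd1-KD and CDGC1 and below them in CDGC6. Without 4 joint entries, 6 of 28 were higher and 4 lower in Dnd1-KD, and 4 higher and 8 lower in CDGC1. Fnip1, a partner of the folliculin complex on lysosomes, had 17.7 and 22.1 FPKM in Dnd1-KD, against 7.64 and 8.18 in control, and folliculin itself (Flcn) had 24.5 and 29.1 FPKM in Dnd1-KD, against 16.2 and 15.6 in control. Both rose in Dnd1-KD, by 1.23 ± 0.12 and 0.71 ± 0.10 (adjusted p = 0.00177 and 0.00497, limma). They do not stand for the list, where 7 were higher and 6 lower. Among the lower, Rragb gave −0.64 ± 0.12 and Gatsl3 −0.61 ± 0.11 (adjusted p = 0.00911 and 0.00828, limma). Sesn3, a sestrin, had 3.40 and 4.17 FPKM in CDGC1, against 9.44 and 10.2 in control, and fell by 1.18 ± 0.14 on the log2 scale (adjusted p = 0.000831). The Dnd1-KD count of 13 went down to 3 without either control library and to 4 without Dnd1-KD replicate 2, and the CDGC1 count of 14 went down to 5 and 6 without control replicate 1 and 2. The CDGC6 count of 1 was 0 without either control library, 2 without CDGC6 replicate 2 or either Dnd1-KD library and 3 without either CDGC1 library.

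Of 24 listed genes of the amino acid response, 21 units were tested, with 13 higher and 0 lower in Dnd1-KD, 9 higher and 4 lower in CDGC1, and 12 higher and 0 lower in CDGC6 (limma). The shares called were 61.9%, 61.9% and 57.1%, against 36.2%, 50.5% and 18.7% of all units. At an unadjusted p below 0.05, 1 was lower in Dnd1-KD and 0 in CDGC6. The medians were 0.84, 0.17 and 0.80 on the log2 scale. CDGC1 against CDGC6 gave 1 higher and 11 lower, with a median of −0.79. Atf4 shares an entry with Mief1, Pck2 shares one with 4 other genes, and Ddit3 and Atf5 were listed at 0 in all 6 libraries outside Dnd1-KD, so these give no level of a single gene that can be set against control. Without these 4, 10 of 17 were higher and 0 lower in Dnd1-KD, 7 higher and 4 lower in CDGC1, and 10 higher and 0 lower in CDGC6. CDGC1 against CDGC6 then gave 0 higher and 11 lower. Trib3, a pseudokinase induced by ATF4, had 1.20 and 2.22 FPKM in CDGC1, 12.7 and 17.0 in CDGC6, 16.7 and 20.9 in Dnd1-KD, against 5.49 and 6.39 in control. Asns, which makes asparagine, had 44.6 and 45.1 FPKM in CDGC1, 115 and 135 in CDGC6, 82.9 and 86.8 in Dnd1-KD, against 76.2 and 77.7 in control. Trib3 was lowest in CDGC1, while Dnd1-KD and CDGC6 overlapped each other above control, and Asns was lowest in CDGC1 and highest in CDGC6. The Asns difference in Dnd1-KD, 0.14 ± 0.09, did not pass (adjusted p = 0.256, limma). Trib3 and Asns do not stand for the list in CDGC1, where 7 of 17 were higher and 4 lower. There Phgdh had 101.6 and 102.4 FPKM, against 57.42 and 56.05 in control. The Dnd1-KD count of 13 fell to 7 without control replicate 1 or Dnd1-KD replicate 2, and the CDGC6 count of 12 fell to 6 without control replicate 1. These lists were chosen with earlier results of these data known, so their counts are not independent evidence of a direction.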

How the data were processed

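The deposited FPKM values are Cufflinks gene tables of 1 library each, with an interval around each value, per the file headers. Libraries were made with a TruSeq RNA v2 kit per the labels' protocols. TopHat2, Bowtie, Cufflinks, Cuffdiff and mm10 are named in the submitters' processing notes, without versions or settings. Symbols that any library joins in 1 entry were treated as 1 unit, and FPKM was summed per unit. No member was joined with another symbol. Entries without a gene name, 76.8% to 85.6% of summed FPKM, were not used. Another 24 units carry a spreadsheet date as their name, and none of them is counted as a member. Units of at least 1 FPKM in at least 2 of 8 libraries were tested on log2(FPKM + 1) with limma 3.58.1 in R 4.3.3 (1 mean per group, eBayes with trend, two-sided), adjusted by Benjamini-Hochberg over 11894 units. The fit was tested on simulated data. Exon overlaps and coordinates are from GENCODE vM21 (mm10). Levels were summarised in Python 3.11.15.

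By rule, each comparison names up to 8 largest rises and 8 largest falls with non-overlapping libraries, no library at 0 and at least 1 FPKM on average in the higher group, and 16 members central to amino acid supply. Other members past the filter were named to account for each, except 1 that is counted but not reported here. Genes named from the 3 lists around the transporters were picked after their values were seen. Members and lists were chosen with earlier results of these data known. Alternatives were a pseudocount of 0.1 or 5, a filter of 5 FPKM or none, quantile and median-ratio scaling, only the compared groups, a replicate block, eBayes without trend, FPKM summed per symbol, and each library left out.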

Additional observations from a re-analysis of the deposited data

How the results depend on the processing

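With no filter on low values 58 members were tested in place of 30. Then 20 passed in Dnd1-KD against control and 31 in CDGC1 against control, in place of 12 and 18. Leaving out 1 library at a time gave 6 to 13 members in Dnd1-KD, 15 to 23 in CDGC1, 3 to 12 in CDGC6 and 12 to 17 in CDGC1 against CDGC6. The replicate number as a block gave 12, 22, 6 and 15, but same-numbered libraries did not deviate together (r of −0.05 to 0.12 between groups), so the numbers do not show a pairing. Under the block Slc1a5, Slc43a2 and Slc7a11 passed in CDGC1 (adjusted p = 0.0429, 0.0402 and 0.0409), and Slc1a3, Slc38a5 and Slc6a8 did not pass in CDGC6 (0.0768, 0.0665 and 0.0554). Leaving out members at 0 in a compared group or past the filter through 1 compared group alone, chosen after seeing the data, gave 12, 16, 9 and 15. Slc6a9, past the filter through CDGC6 and Dnd1-KD alone, stayed in the counts of both groups against control. Single members were followed through the alternatives only where they passed or were named by rule in that comparison. Among those followed, directions turned only in members that had not passed. Whether they turned in the members not followed is not given. In Dnd1-KD these were Slc38a4 (0.13 without Dnd1-KD replicate 2, with −0.37 to 0.13 over the libraries left out) and Slc38a9 (0.23 without Dnd1-KD replicate 2, with −0.73 to 0.23). In CDGC1 against CDGC6 these were Slc43a2 (0.089 without CDGC1 replicate 2, with −0.56 to 0.089) and Slc7a7 (−0.052 without CDGC1 replicate 2 and −0.092 without CDGC6 replicate 1, with −0.092 to 0.24). The cause was not tested. Calls that held under every alternative numbered 5 of 12 in Dnd1-KD, 15 of 18 in CDGC1, 3 of 9 in CDGC6 and 12 of 17 between the lines. The 15 in CDGC1 and the 12 between the lines include Slc38a5, past the filter through CDGC1 alone, and Slc6a9, listed at 0 in CDGC1. Slc6a9 is also among the calls that held in Dnd1-KD, and it passed the filter only through Dnd1-KD and CDGC6. Quantile normalization and median-ratio scaling kept the median over all units within 0.1 of 0. The depth behind a value is known only through the authors' intervals, and for 4 values of at least 1 FPKM these reach 0. With 2 libraries a group, a difference that did not pass is not shown to be absent.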
